A study of Mus musculus with 20 samples.

Results

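The enzymes described here belong to fatty acid synthesis (Fasn, Elovl6 and Scd1) and to the pentose phosphate pathway (Taldo1 and Tkt). They were followed through the differentiation of 3T3-L1 preadipocytes, fibroblast-like mouse cells that become adipocytes filled with fat droplets. The members are all probe sets of array A or array B whose only platform symbol is 1 of these 5 genes. This gave 5 of 6137 genes with such a probe set, and 6 of 13057 probe sets: 1 each for Scd1, Taldo1 and Tkt and 2 for Elovl6 on array A, and 1 for Fasn on array B. Each of 10 time points was 1 culture sample per array type, with no replicate and no uninduced cells at matching times. The late cells were those at days 4, 7 and 28 after induction by the MDI protocol, which usually combines insulin and dexamethasone with the phosphodiesterase inhibitor isobutylmethylxanthine. The middle cells were those at days 2 and 3, the early cells those at 6, 12 and 24 hours, and the cells before induction the preconfluent and the confluent ones. All came from the same line, no genotype or other treatment is labelled, and effects of the mixture cannot be told apart from time in culture.

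Fatty acid synthase, encoded by Fasn, joins acetyl and malonyl units into palmitate on a single large polypeptide and spends NADPH at each cycle. Elovl6 lengthens palmitate by one such unit, and Scd1, the stearoyl-CoA desaturase, places a double bond in the chain, which gives the monounsaturated acids abundant in stored triglyceride. The pentose phosphate pathway is one source of NADPH in adipocytes: its oxidative branch makes it from glucose 6-phosphate, and transketolase (Tkt) and transaldolase (Taldo1) of the non-oxidative branch return the resulting pentoses to glycolytic sugars.

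The stage labels were checked on marker genes. All 9 tested probe sets of the adipocyte markers were higher late than before induction. The 10 probe sets of that list, with an untested one of Lpl included, summed to between 104833 and 126614 in late cells. Cells before induction had 1849 and 10145. These sums run over both array types, which were scaled separately. Of 9 probe sets for preadipocyte and fibroblast markers, 3 were lower late, those of Dlk1, Lox and Thy1. The 9 summed to between 24552 and 55688 late, against 63693 and 85660 before. All 9 had their highest late value on day 28, to which the 55688 belongs. Thy1, for one, had 1620, 674 and 4240 on days 4, 7 and 28, and Acta2 -58, 502 and 5850. Macrophage markers summed to between 2157 and 3842 late, against 4476 and 4585 before, with Cd14 and C1qc called lower. Of that list Csf1r, Adgre1 and C1qa lay below the floor on all arrays, while Cd14 lay between 1000 and 2470 and Lyz2 between 140 and 1650. Of the endothelial, muscle and hepatocyte markers Icam2 and Des were called, both higher late, and the sums lay between 679 and 1376, 4362 and 4701, and 739 and 1035 late, against 1013 and 1132, 4549 and 5015, and 857 and 1140 before. In bulk RNA, fewer cells of a type and less RNA per cell cannot be told apart. As a sign of RNA quality, the 3-prime over 5-prime signal of the Gapdh control was read. On array A it was 1.14, 1.13 and 0.992 late, 1.27 and 1.60 middle, 1.61, 1.43 and 1.45 early, and 0.986 and 1.33 before. On array B this signal lay between 0.722 and 0.815 at all time points. Its part in the results was not tested. Low intensities were set to a floor before log2 was taken, 136 for array A and 156 for array B, which applied to 43.4% to 47.2% of an A array and 53.5% to 55.4% of a B array.

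The supplied RefSeq table of mouse promoters (build GRCm38.p6) held 4 of the 5 genes. The windows of 250 bases before the start are shown for these 4, and Scd1 had none. A link between their letters and the time courses was not tested. They lie at chr11:120824548-120824797 on the minus strand for Fasn, inside the span annotated for that gene, and on the plus strand at chr3:129532136-129532385 for Elovl6, chr7:141391910-141392159 for Taldo1 and chr14:30548881-30549130 for Tkt. Capitals mark exact matches, on either strand, of CCAAT, the NF-Y box, and GGGCGG, the GC box that Sp1 binds.
Fasn: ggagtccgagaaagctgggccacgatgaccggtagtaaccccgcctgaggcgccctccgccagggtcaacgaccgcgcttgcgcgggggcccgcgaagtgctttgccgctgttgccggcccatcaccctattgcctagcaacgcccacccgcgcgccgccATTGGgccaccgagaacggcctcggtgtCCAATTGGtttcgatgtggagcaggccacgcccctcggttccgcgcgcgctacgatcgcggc
Elovl6: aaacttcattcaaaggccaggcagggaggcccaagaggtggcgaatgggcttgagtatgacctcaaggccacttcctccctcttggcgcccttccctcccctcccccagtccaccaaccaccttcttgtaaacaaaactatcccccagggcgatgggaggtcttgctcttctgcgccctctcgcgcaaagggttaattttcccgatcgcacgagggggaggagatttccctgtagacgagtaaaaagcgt
Taldo1: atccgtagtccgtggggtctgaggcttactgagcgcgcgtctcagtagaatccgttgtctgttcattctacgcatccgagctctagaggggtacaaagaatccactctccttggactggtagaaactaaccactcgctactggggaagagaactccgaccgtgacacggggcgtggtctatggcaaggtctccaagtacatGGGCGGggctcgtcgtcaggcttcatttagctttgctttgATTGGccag
Tkt: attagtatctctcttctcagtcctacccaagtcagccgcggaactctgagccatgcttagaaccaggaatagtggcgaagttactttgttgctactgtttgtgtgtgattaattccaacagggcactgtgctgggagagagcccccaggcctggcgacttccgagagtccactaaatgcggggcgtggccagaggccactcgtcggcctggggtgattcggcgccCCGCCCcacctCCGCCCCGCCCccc

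The Fasn window held 3 matches of CCAAT, which begin 90, 62 and 59 bases before the start, the last 2 being overlapping copies on opposite strands. In Taldo1 CCAAT matched 9 bases before the start and GGGCGG 49 bases before it, and Tkt had 3 matches of GGGCGG, at 25, 14 and 9 bases, the last 2 sharing 1 base. Elovl6 had none of either. CACGTG, the E-box that USF factors bind, and TATAAA were in none of the 4. Over the 32851 windows of the table, 33.8% held CCAAT, 32.7% GGGCGG, 6.02% CACGTG and 12.4% TATAAA. A match is a description of letters, not of a site in use.

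**Figure D1:**
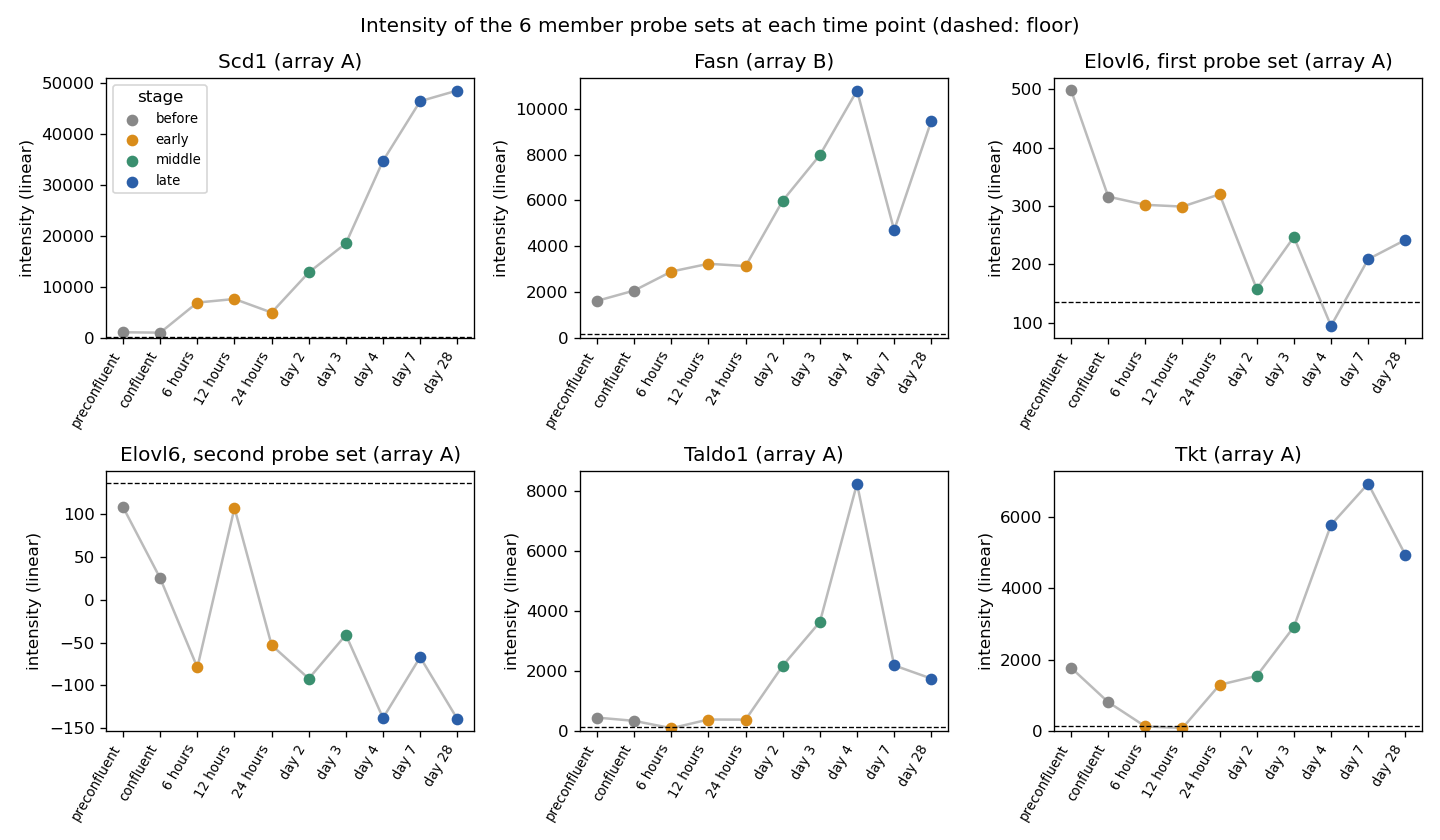
Intensity (linear scale, y axis) of each member probe set at the 10 time points (x axis), 1 array per point, coloured by stage, with the floor as a dashed line. Scd1 climbed to 48500 on day 28, Fasn and Taldo1 had their highest values on day 4 and Tkt on day 7, while both Elovl6 probe sets stayed at or under 498.

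Fasn rose gradually. Its intensity was 1610 in preconfluent and 2060 in confluent cells, 2890, 3230 and 3130 at 6, 12 and 24 hours, 5990 and 7980 on days 2 and 3, and 10800, 4700 and 9470 on days 4, 7 and 28. Every late value lay above every early value, and every early value above both values before induction. By 24 hours 25.2% of the log2 rise between confluent cells and the day 4 peak had been reached, by day 2 64.4% and by day 3 81.7%. Late cells averaged 8323 ± 3208 (SD, n = 3), against 1835 ± 318 (SD, n = 2) in cells before induction. In geometric means, used for stage folds not given as "at least", this was a 4.30-fold rise (log2 change 2.10 ± 0.34 SE, adjusted p = 0.00659 from limma). The call was lost without the preconfluent sample (log2 change 1.93, adjusted p = 0.065), and over 19 alternatives the adjusted p lay between 0.00208 and 0.065.

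The day 7 value of Fasn was the lowest of its late values. It was 2.30-fold below that of day 4, and day 28 was 2.01-fold above it. Among the 9 tested adipocyte marker probe sets, day 7 was the lowest late value for Fabp4, a fatty acid carrier, with 28400, 12700 and 25900 on days 4, 7 and 28, and for Adipoq, adiponectin, with 17700, 16500 and 19900. It was not the lowest for the other 7, those of Lpl, Lipe, Pparg, Retn, Cebpa and Slc2a4, of which Cebpa and Slc2a4 are on array B as Fasn is. The other pathway genes described below were mixed. Day 7 was the lowest late value for Scd2, Slc25a1 and both probe sets of Acly, among others, and not for Me1, Idh1 or Thrsp, among others.

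Elovl6 stayed dim, and no late value exceeded a value before induction. The first probe set lay at 498 and 316 in preconfluent and confluent cells, at 302, 299 and 320 in early cells, at 158 and 247 on days 2 and 3, and at 95, 209 and 242 on days 4, 7 and 28. The day 4 value was below the floor, and the late values did not overlap those before induction. The log2 change late versus before was -1.06 ± 0.35 (SE, adjusted p = 0.0817) and did not pass the test, nor did it under any of 20 alternatives (adjusted p between 0.0704 and 0.405). The second probe set lay between -139 and 108, below the floor in all 10 samples, and was not tested.

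Scd1 rose in 2 phases. It read 1060 and 987 before induction, jumped to 6890 at 6 hours and 7590 at 12 hours, and stood at 4930 at 24 hours. It then climbed at every later time point, with 12800 and 18500 on days 2 and 3 and 34700, 46400 and 48500 on days 4, 7 and 28. The first 6 hours covered 49.9% of the log2 rise between confluent cells and day 28. The stages did not overlap. Late cells averaged 43200 ± 7436 (SD, n = 3), against 1024 ± 51.6 (SD, n = 2) before induction (41.8-fold, log2 change 5.39 ± 0.32 SE, adjusted p = 2.5e-05). On day 7 the Scd1 probe set was the brightest of array A, and on day 28 it reached 95.3% of the highest value there. Saturation of its late values was not tested. All member probe sets but the second of Elovl6 carry the suffix s, for probes that can match related transcripts, and signal of the paralog Scd2 in that of Scd1 was not tested.

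Taldo1 was high from day 2 on and highest on day 4. It lay at 437 and 328 before induction, at 82, 373 and 369 in early cells, at 2170 and 3630 on days 2 and 3, and at 8250, 2180 and 1740 on days 4, 7 and 28. The 6-hour value was below the floor, and the 12-hour and 24-hour values fell between the preconfluent and the confluent one. The 5.88-fold step between 24 hours and day 2 separates all earlier values from all later ones. Late cells averaged 4057 ± 3638 (SD, n = 3), against 383 ± 77.1 (SD, n = 2) before induction (8.32-fold, log2 change 3.06 ± 0.65 SE, adjusted p = 0.0131). Without day 4 the log2 change was 2.36 (adjusted p = 0.024). The call was lost without the preconfluent sample (adjusted p = 0.0734), without the confluent sample (0.0884), with 24 hours counted as middle (0.0624) and with no filter (0.112), the highest of 19 alternatives. On day 7 Taldo1 was 3.78-fold below day 4, the step in which Fasn was 2.30-fold lower.

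Tkt lay below the floor at 6 and 12 hours and was highest in late cells. It had 1770 in preconfluent and 803 in confluent cells, 119 and 76 at 6 and 12 hours, and 1290 at 24 hours. Values of 1540 and 2920 followed on days 2 and 3, and 5790, 6950 and 4950 on days 4, 7 and 28. Between confluent cells and 6 hours it was at least 5.90-fold lower, and between 12 and 24 hours at least 9.49-fold higher. The late samples lay above all others, with a mean of 5897 ± 1004 (SD, n = 3), against 1287 ± 684 (SD, n = 2) before induction. The 4.90-fold difference did not pass the test (log2 change 2.29 ± 0.83 SE, adjusted p = 0.107). It was called without the 24-hour sample (adjusted p = 0.00872) and with 24 hours counted as middle (0.0111), against a range of up to 0.413 over 19 alternatives.

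**Figure D2:**
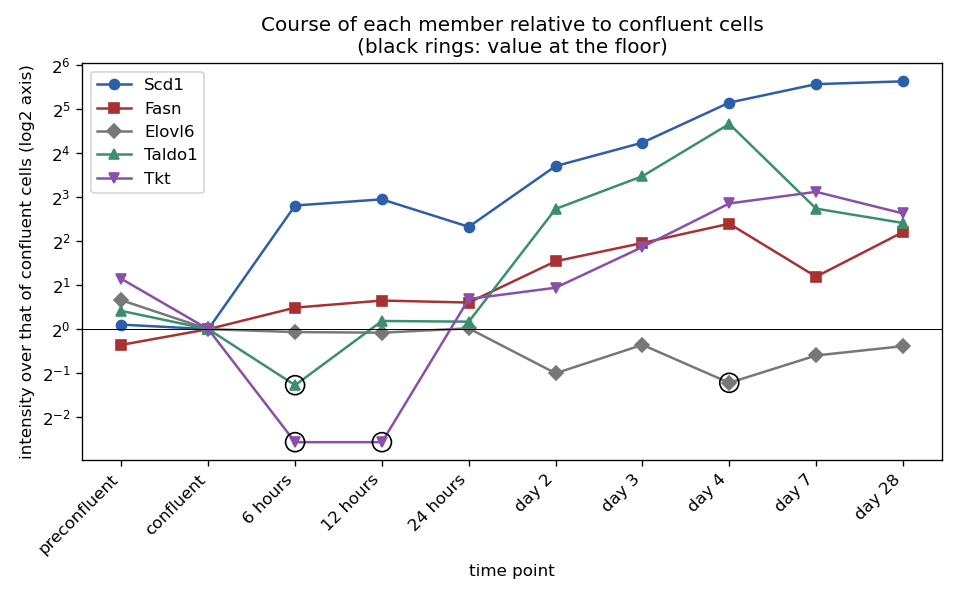
Intensity of each member's tested probe set divided by its value in confluent cells (y axis, log2 scale) at the 10 time points (x axis), 1 array per point, with black rings where a value was at the floor. At 6 hours Scd1 stood at 6.98 times its confluent level while Taldo1 and Tkt were at the floor, and on day 4 Scd1 stood at 35.2, Taldo1 at 25.2, Tkt at 7.21, Fasn at 5.24 and Elovl6, at the floor, at 0.430.

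Set side by side, late cells differed from cells before induction in 3 of the 5 tested member probe sets. Scd1, Fasn and Taldo1 were called higher and none lower, where 5.82% of all 7571 probe sets tested were called higher and 5.09% lower. The median log2 change was 2.29 over the 5 and -0.055 over all. At an unadjusted p under 0.05 all 5 differed, Tkt higher and Elovl6 lower, as did 1903 of the 7571 probe sets. Without the preconfluent sample, which leaves 1 sample before induction, the log2 changes were 5.44 for Scd1, 1.93 for Fasn and 3.26 for Taldo1. Fewer probe sets were called then, both among the members and among all tested. Time points stand in for replicates within a stage, and each SD and p-value here therefore rests on differences among them, technical ones and change with time alike.

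The comparison of early cells with cells before induction asked which enzymes had changed within a day of induction. Scd1 alone of the 5 was called. It averaged 6470 ± 1379 (SD, n = 3) early, against 1024 ± 51.6 (SD, n = 2) before, a 6.22-fold rise (log2 change 2.64 ± 0.32 SE, adjusted p = 0.00914). Over all probe sets 0.198% were called higher and 0.158% lower. Fasn had a log2 change of 0.76 ± 0.34 (SE, adjusted p = 0.558), with all 3 early values above both values before induction. Tkt had one of -2.05 ± 0.83 (SE, adjusted p = 0.453), Taldo1 -0.51 ± 0.65 (adjusted p = 0.925) and Elovl6 -0.37 ± 0.35 (adjusted p = 0.891). The Scd1 call was lost without the preconfluent sample (adjusted p = 0.0573), without 12 hours (0.0737) and with 24 hours counted as middle (0.0737). Tkt was called lower, at a log2 change of -3.13, without 24 hours (adjusted p = 0.03, against a range over 19 alternatives of 0.0264 to 0.98).

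Late against early cells showed the change after the first day. Scd1, Fasn, Taldo1 and Tkt were called higher and none lower, 4 of 5, where 7.17% of all probe sets were higher and 6.56% lower. Tkt averaged 5897 late, against 495 early, with 2 early values at the floor, which made it at least 11.3-fold higher, the smaller of the ratios of arithmetic and of geometric means with the floor in place (log2 change 4.34 ± 0.74 SE, adjusted p = 0.004, and 0.0611 with no filter, the highest of 19 alternatives). The log2 change was 5.42 without the 24-hour sample and 3.68 with double the floor. Taldo1 averaged 4057 late, against 275 early, at least 11.9-fold higher (3.57 ± 0.58 SE, adjusted p = 0.00325), with a log2 change of 2.87 without day 4. Scd1 was 6.72-fold higher (2.75 ± 0.29 SE, adjusted p = 0.000393) and Fasn 2.54-fold (1.35 ± 0.30 SE, adjusted p = 0.0222). The Fasn call was lost in 9 of 19 alternatives, among them each early sample left out in turn and day 4 or day 28 left out, with an adjusted p of up to 0.0987. For Elovl6 the log2 change was -0.69 ± 0.32 (SE, adjusted p = 0.182), with all late values below all early ones.

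**Figure D3:**
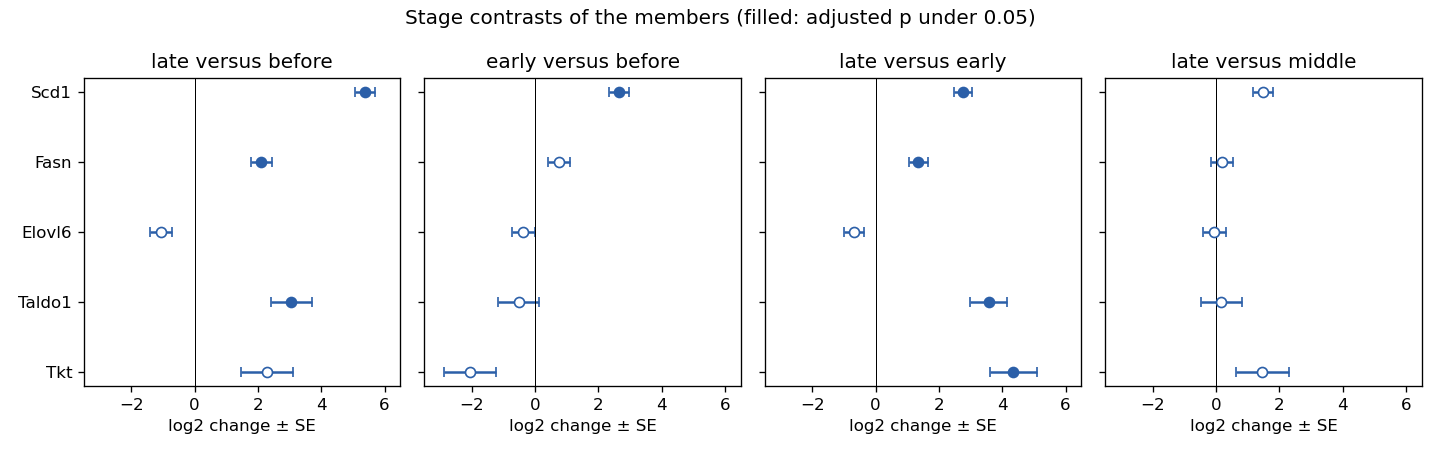
Log2 change with its standard error (x axis) of the tested probe set of each member in 4 stage contrasts, filled where limma's adjusted p was under 0.05. Scd1 is filled in 3 panels, Fasn and Taldo1 in 2, Tkt in 1 and Elovl6 in none.

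Between late and middle cells 0 of 5 members were called by limma, where 0.225% of all probe sets were called higher and 0.066% lower. At an unadjusted p under 0.05 there was 1 of the 5, Scd1, and 916 of the 7571 probe sets. Scd1 averaged 43200 late, against 15650 ± 4031 (SD, n = 2) on days 2 and 3 (log2 change 1.47 ± 0.32 SE, adjusted p = 0.107). Without day 4 it was called (adjusted p = 0.0498), and so it was with a variance prior that follows intensity (0.0396), while the highest of its 19 alternatives was 0.761. Tkt had 1.46 ± 0.83 (SE, adjusted p = 0.514), with no overlap between the stages. The changes of Fasn, Taldo1 and Elovl6 were 0.18, 0.17 and -0.055, and their stages overlapped.

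Along the whole series 4 of the 5 members changed by limma's spline test, where 16.8% of all probe sets did. The adjusted p was 0.000755 for Taldo1, 0.000949 for Scd1, 0.00184 for Tkt and 0.0127 for Fasn. Elovl6 was not called (adjusted p = 0.121). The Fasn call was lost with no filter (0.0715). The other 3 kept theirs under all 18 alternatives.

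Steps between neighbouring time points, each 1 sample against 1, carry no test. A step counted where the floored values differed 2-fold or more in either direction. In confluent against preconfluent cells this held for Tkt alone, 2.20-fold lower, and for 13.5% of all probe sets tested. At 6 hours against confluent cells it held for 3 members, Scd1 6.98-fold higher and Taldo1 and Tkt at least 2.41-fold and at least 5.90-fold lower (13.3% of all). The 2 pentose phosphate enzymes and Scd1 thus moved in opposite directions in that step. At 12 against 6 hours Taldo1 alone passed (9.47% of all), returning from the floor, and at 24 against 12 hours Tkt alone (9.29%). On day 2 against 24 hours Scd1 was 2.60-fold and Taldo1 5.88-fold higher and Elovl6 2.03-fold lower, 3 of 5 (9.09% of all). Fasn was 1.91-fold higher in that step. No member passed on day 3 against day 2 (8.68% of all). On day 4 against day 3 Taldo1 passed, 2.27-fold higher (9.51%), with Tkt at 1.98-fold and Scd1 at 1.88-fold. On day 7 against day 4 Fasn and Taldo1 passed, both lower (14.4%), while Scd1 was 1.34-fold and Tkt 1.20-fold higher. On day 28 against day 7 Fasn passed, higher (13.3%). The median step of all probe sets was between -0.023 and 0 on the log2 scale in each of these steps on both array types.

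The wider pathway was read from a list of 56 further genes, of which 23 had a probe set with that symbol alone and 19, on 23 probe sets, passed the filter. Late against before, 3 of the 23 probe sets were higher and 1 lower (5.82% and 5.09% of all), with a median log2 change of 0.35, against -0.055 over all probe sets tested. Late against early, 6 were higher and 1 lower (7.17% and 6.56% of all), and in the trend 5 were called (16.8% of all). Late against middle 1 was called, that of Thrsp, whose values before day 4 were all set to the floor. Early against before the changes lay between -1.15 for Me1 and 0.83 for Hacd3, and the smallest adjusted p was 0.322. The list was chosen with earlier results of these data known.

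In the supply of carbon to the cytosol, Slc25a1, the mitochondrial citrate carrier, had 14400, 10600 and 14200 late, against 4220 and 4600 before (2.94-fold, log2 change 1.55 ± 0.35 SE, adjusted p = 0.0162). Me1, the malic enzyme that makes cytosolic NADPH, had 977, 718 and 704 late, against 379 and 299 before, and was not called there (adjusted p = 0.0649). It was higher late than early (log2 change 2.38, adjusted p = 0.00183), with 143, 120 and 179 at 6, 12 and 24 hours, of which the second was below the floor. Tkt, too, was below the floor at 12 hours. Acly, which splits citrate into acetyl-CoA, was not called on either array type (log2 changes late versus before 0.16 and 0.35), and both of its probe sets had their highest value on day 28, 6060 on array A and 737 on array B.

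Among desaturases and elongases, Scd2, a second stearoyl-CoA desaturase, had 15800, 7860 and 10400 late, against 2980 and 2900 before (3.70-fold, log2 change 1.89 ± 0.36 SE, adjusted p = 0.0086). At 6, 12 and 24 hours Scd2 had 5660, 4100 and 3400, and its early change of 0.54 was not called (adjusted p = 0.779). Elovl1, an elongase of very long chains, was not called, with 5340, 2870 and 3890 on days 2, 3 and 4 and 375 and 741 on days 7 and 28. Cells before induction had 461 and 451, and those at 6, 12 and 24 hours 1270, 740 and 552. Tecr and Hacd3, which act in each elongation cycle, had changes of 0.58 and 0.054 and were not called.

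Of 10 other pentose phosphate genes listed, 5 had a probe set with that symbol alone, and G6pdx of the oxidative branch did not. The 4 genes tested, on 6 probe sets, passed no comparison by limma, with a smallest adjusted p of 0.0897, for Pgd along the series. Pgd, 6-phosphogluconate dehydrogenase of the oxidative branch, had 1220, 1140 and 971 late, against 986 and -34 before (log2 change 1.59 ± 0.69 SE, adjusted p = 0.176). Pgls, the lactonase, had 971, 991 and 1010 late, against 83 and 826 before (1.56 ± 0.61 SE, adjusted p = 0.133), so its low value stood in preconfluent and that of Pgd in confluent cells. Rpia, which interconverts pentose phosphates, had a change of 0.22, and Prps1, which draws ribose 5-phosphate off to nucleotides, changes between 0.17 and 0.90 on 3 probe sets. Of other NADPH sources, Nnt, the mitochondrial transhydrogenase, fell to 921, 439 and 696 late, against 2140 and 2670 before (log2 change -1.87 ± 0.31 SE, adjusted p = 0.00801). Idh1, cytosolic isocitrate dehydrogenase, had 4030, 4300 and 5870 late, against 755, 1520 and 3140 early (log2 change 1.61, adjusted p = 0.0454). Against the 1510 and 2860 before induction it was not called (1.17, adjusted p = 0.197), nor was Idh2, its mitochondrial counterpart (0.016, adjusted p = 0.991).

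Thrsp, a nuclear protein tied to lipogenic gene expression, lay between -4 and 117 at the first 7 time points, all below the floor, and had 774, 751 and 623 on days 4, 7 and 28. It was at least 4.57-fold higher late than before (adjusted p = 0.000191 from limma). It passed the filter through its late values alone. All its other values were set to the same floor, which leaves no spread among them, so its p-values are no measure of support. Usf1, which binds E-boxes, and Mbtps1, a protease that activates SREBPs, were not called. Mlx, the partner of ChREBP, had 534, 371 and 571 late, against 259, 58 and 239 early (log2 change 1.25, adjusted p = 0.0289). Late against before it was not called (0.42, adjusted p = 0.526), and its 12-hour value was below the floor.

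**Figure D4:**
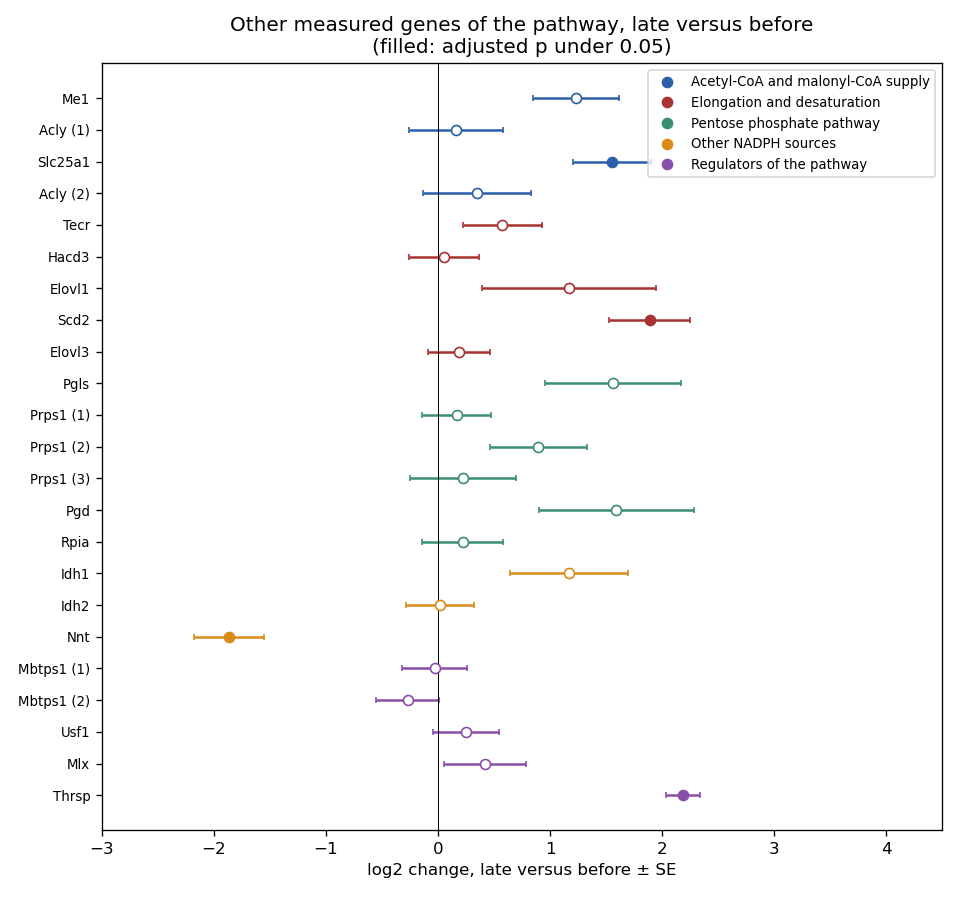
Log2 change late versus before with its standard error (x axis) for the 23 tested probe sets of other pathway genes, coloured by list, filled where limma's adjusted p was under 0.05 and numbered where a gene has several. Slc25a1, Scd2 and Thrsp are filled to the right of 0 and Nnt to the left.

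Pearson's r of log2 values over the 10 time points is given as a description. At each time point the members share their RNA, and all but Fasn, which is on array B, share an array. The r was 0.889 between Scd1 and Fasn and 0.849 between Fasn and Taldo1. Between Taldo1 and Tkt it was 0.805, and between Scd1 and Tkt 0.503. Elovl6, whose signal lay near the floor and whose trend was not called, had r between -0.826 and -0.439 with the other members. Among 3226 other named genes that spanned at least 2-fold, the course of Scd1 was most like those of Hk2 (r = 0.975), Uck1 (0.971), Cycs (0.940), Ncoa4 (0.935) and Atp5l (0.932). Fasn was nearest to Atp5l (0.965), Uqcr11 (0.963), Timm8b (0.950), Uqcr10 (0.948) and Acadvl (0.948). For Taldo1 they were Alad (0.975), Psma6 (0.968), Mgst3 (0.962), Slc25a5 (0.961) and Ndufb6 (0.956), and for Tkt Plin2 (0.985), Uqcrc1 (0.965), Acadl (0.951), Nampt (0.933) and Pmpcb (0.931). Elovl6 was nearest to Msn (0.965), Ahnak (0.913), Serpinb6a (0.911), Capg (0.901) and Ak1 (0.900). Atp5l was the name shared by 2 of these lists.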

How the data were processed

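RNA from each of 10 time points was hybridised once to each of 2 Affymetrix array types, A and B, which gave 20 arrays. The deposited values are linear intensities per probe set, made by the authors after the maker's technical manual, per the labels' protocols. Software and scaling target are not given in the sources used here. The trimmed means (2% cut at each end) lay within 5% of their average, so the authors' scaling was kept.

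Names came from the platform annotation, through probe sets with 1 symbol (7542 of 13057). The 122 control probe sets, 12 yeast ones included, were left out. The planned floor, the 25th percentile, came to 5 (A) and -25 (B), so the stated fallback was used: the 10th percentile with its sign turned (136 and 156). Testing required at least 2 samples above 183 (A) or 156 (B). Limma 3.58.1 (R 4.3.3) fitted stage means to log2 values, each array type alone, with 6 residual degrees of freedom, and an F test of a spline with 3 degrees of freedom. Adjustment was by Benjamini-Hochberg over all 7571 probe sets tested, and an adjusted p under 0.05 was a call. The test code was tested on simulated data. For intensities, the number of arrays limits the precision. Alternatives changed the floor, log scale, filter, normalization, variance prior, adjustment, stage limits and spline, and left out each time point. The members, lists and tests were chosen with earlier results of these data known. Described genes were all members, the listed pathway genes, fixed markers, and for each member the 5 genes of most similar course.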

Additional observations from a re-analysis of the deposited data

How the results depend on the processing

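Over 475 alternatives of single members and comparisons, 441 kept their direction and side of the threshold, 19 lost a call, 6 gained one and 9 changed direction. The 9 were all uncalled late against middle changes, which as first fitted were 0.18 for Fasn, 0.17 for Taldo1 and -0.055 for Elovl6. Fasn turned to -0.27 with day 4 counted as middle, -0.051 without day 4 and -0.027 without day 2, Taldo1 to -1.05, -0.53 and -0.20 under the same alternatives, and Elovl6 to 0.37 with day 4 counted as middle, 0.19 without day 4 and 0.27 without day 3. With 1 time point left out, these changes reached 0.55 for Fasn and 0.60 for Taldo1, and -0.38 for Elovl6. With 1 time point left out, the count of members called lay between 1 and 4 late against before, between 0 and 2 early against before and between 0 and 1 late against middle. Scd1 was called late against before and late against early under all 19 alternatives. With no filter, 2 members in place of 4 were called late against early, on 13057 probe sets in place of 7571. With an intensity-dependent prior variance 1 was called late against middle, in place of 0. The cause was not tested. Over all probe sets, the calls early against before ranged between 0 (without 12 hours) and 65 (with double the floor), beside 27 as reported, and those late against middle between 2 (without day 2 or without day 7) and 116 (without day 4), beside 22. Those late against before fell to 317 without the preconfluent sample and 501 without the confluent one, beside 826, and no filter gave 412, against 514 beside 1040 late against early and 632 beside 1274 along the series. With 1 of the 2 samples of a stage left out, the fit takes the spread of the remaining one from the other stages. No paired analysis was possible because the replicate numbers only name the time points of a stage. Signal near the floor limits Elovl6, early Tkt and Taldo1 at 6 hours.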
